A study of Mus musculus with 4 samples.

Results

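The genes described are 47 of the 17568 listed in the deposited expression table: the WNT ligands, the R-spondins, the Frizzled and LRP receptors, and genes known as WNT targets or secreted WNT inhibitors. They were taken by name, as every Wnt, Fzd and Rspo gene in the table plus Lrp5, Lrp6 and 14 named targets, feedback genes and inhibitors. By role they comprise 21 ligands and R-spondins (17 Wnt genes and 4 R-spondins), 12 receptors (10 Frizzled genes, Lrp5 and Lrp6), 11 targets and feedback genes, and 3 other secreted inhibitors. RNA was sequenced on the SOLiD platform, a ligation-based short-read sequencer, from mouse forelimbs, taken from Swiss Webster embryos that were wild type and at E10.25 (31 to 34 somites). The limbs had been kept in culture with control medium or with cyclopamine added, a plant alkaloid that blocks Smoothened and with it the Hedgehog signal. There were 2 libraries per condition, called biological replicates by the submitters. The labels state neither a dose nor a vehicle, and they leave out culture time and how many limbs were pooled.

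WNT proteins are secreted lipid-modified ligands that bind Frizzled receptors on the cell surface. With LRP5 or LRP6 as co-receptor they stabilise beta-catenin, which enters the nucleus and activates target genes together with TCF and LEF factors; with other co-receptors they act on cell polarity without beta-catenin. R-spondins bind LGR receptors and remove the ubiquitin ligases RNF43 and ZNRF3, which otherwise take Frizzled off the membrane. In the limb bud, Wnt3 in the ectoderm is needed for the apical ectodermal ridge, Wnt7a in the dorsal ectoderm gives dorsal identity and maintains Shh, and Wnt5a in the distal mesenchyme directs outgrowth.

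No WNT gene differed past the adjusted threshold between cyclopamine and control in the main test. The lowest values relative to control were those of Wnt10b and Wnt7a among the ligands and of Apcdd1, Notum and Sp5 among the targets. For Sp5, with 7 to 37 reads per library, the groups overlapped. Wnt11, Rspo1, Lgr5 and Wif1 were measured higher. Frizzled and LRP receptor levels lay close to the controls, with log2 fold changes between -0.18 and 0.36. Axin2, the target most often used to read beta-catenin activity, overlapped between the groups.

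Between 9779589 and 13555492 reads per library were assigned to genes, and values are normalized counts relative to the effective library size (CPM). Genes averaging 1 CPM or more over the libraries were tested with limma on log2(CPM + 0.5), and p-values were adjusted over all 13568 such genes. Of these, 38 genes (0.28%) passed an adjusted p of 0.05. The treatment was checked on Hedgehog targets. Gli1 measured 56.2 and 56.7 CPM in control limbs against 8.05 and 4.70 CPM with cyclopamine, and Ptch1 measured 116 and 107 CPM against 51.3 and 32.2 CPM, with limma log2 fold changes of -3.10 (SE 0.23) and -1.44 (SE 0.19). The summed level of 7 limb mesenchyme markers was 1397 and 1485 CPM in control limbs against 1493 and 1724 CPM with cyclopamine, apart, with 6 of 7 higher and 0 past the threshold. All 7 were detected. The list holds no hindlimb marker, so the label of forelimb was not tested by it.

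Promoters of 4 members are shown. Wnt7a and Wnt10b had the smallest unadjusted p among the ligands, and Dkk1 and Sp5 are shown for contrast in sequence only, as targets whose windows hold the motif bound by TCF and LEF factors. The runs are the 250 bases before the RefSeq start in GRCm38.p6, written 5′ to 3′ on the gene's strand, at chr6:91411354-91411603 on the minus strand for Wnt7a, chr15:98778151-98778400 on the minus strand for Wnt10b, chr19:30549497-30549746 on the minus strand for Dkk1 and chr2:70474673-70474922 on the plus strand for Sp5. Capitals mark matches on either strand to the motif CTTTGAA, the motif CTTTGAT, the motif CTTTGTA or the motif CTTTGTT.
Wnt7a: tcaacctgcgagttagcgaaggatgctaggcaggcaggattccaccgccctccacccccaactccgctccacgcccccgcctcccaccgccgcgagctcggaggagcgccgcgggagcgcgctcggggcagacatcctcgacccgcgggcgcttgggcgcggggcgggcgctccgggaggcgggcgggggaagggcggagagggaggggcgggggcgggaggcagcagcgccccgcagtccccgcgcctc
Wnt10b: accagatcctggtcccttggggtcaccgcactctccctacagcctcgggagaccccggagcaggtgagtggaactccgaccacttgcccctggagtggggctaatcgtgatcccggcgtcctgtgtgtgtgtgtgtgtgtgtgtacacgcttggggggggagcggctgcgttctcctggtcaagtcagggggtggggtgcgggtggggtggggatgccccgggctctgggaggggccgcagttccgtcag
Dkk1: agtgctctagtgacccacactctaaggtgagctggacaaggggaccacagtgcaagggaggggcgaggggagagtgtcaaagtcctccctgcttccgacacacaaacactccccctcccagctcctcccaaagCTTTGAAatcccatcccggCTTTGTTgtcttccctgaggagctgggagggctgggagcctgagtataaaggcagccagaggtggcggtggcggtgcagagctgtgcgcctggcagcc
Sp5: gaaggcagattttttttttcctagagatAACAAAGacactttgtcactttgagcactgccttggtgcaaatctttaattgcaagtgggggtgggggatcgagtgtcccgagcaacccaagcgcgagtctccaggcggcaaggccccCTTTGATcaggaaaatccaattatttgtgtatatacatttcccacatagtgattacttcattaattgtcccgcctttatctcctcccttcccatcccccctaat
Dkk1 has matches beginning 117 and 98 bases before the start, the first being CTTTGAA and the second being CTTTGTT. Sp5 has a reverse-strand CTTTGTT, read as AACAAAG, 222 bases before the start and a CTTTGAT 104 bases before it. None of these matches overlaps another. Wnt7a and Wnt10b hold no match, which says only that these letters are not in those windows.

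The RefSeq promoter table held 300-base windows (250 before to 50 after the start) for 30 of the 47 members. A motif stood in 7 of their 38 windows (18.4%), against 5544 of all 32851 windows of that length (16.9%). The genes with a match were Dkk1, Lef1 and Sp5 among the targets, Wnt3, Wnt5b and Wnt11 among the ligands, and Fzd7 among the receptors. The share in members lies near the share in all promoters. Of these genes Wnt11 was measured higher in both cyclopamine libraries than in both controls, and Wnt3 and Lef1 lower, while the groups overlapped for Dkk1, Sp5, Wnt5b and Fzd7.

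Levels were compared between genes on a per-length scale, CPM per kb of annotated exon (GENCODE vM21). By this measure Wnt5a was the most abundant ligand transcript, with a mean of 20.7 over the 4 libraries (13.6 to 28.5), next to Rspo4 at 19.1 (17.1 to 23.5). Their ranges overlap, so the order of these genes is not fixed. Wnt6, an ectodermal ligand, followed at 7.44 (5.90 to 8.60), clear of Rspo4 and overlapping Rspo1 (6.71) and Rspo3 (6.61). From Wnt3 (3.62 CPM per kb) down to Wnt10a (0.544), each ligand overlapped the next in the order. Wnt16, at 0.266 CPM per kb, lay below Wnt10a with no overlap. Wnt3a and Wnt8a gave at most 6 reads in any library and were not tested.

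Summed over the 17 Wnt genes, the level per kb was 51.7 and 60.3 in the controls and 45.5 and 52.1 in cyclopamine. Wnt5a made up 38.1% and 47.2% of it in the controls and 29.9% and 40.4% in cyclopamine. The share of Wnt6 was 13.1% and 9.78% in the controls and 18.9% and 16.3% in cyclopamine, with no overlap between the groups. Among the R-spondins, Rspo4 held 48.9% to 56.7% of the summed level in the 4 libraries.

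**Figure D1:**
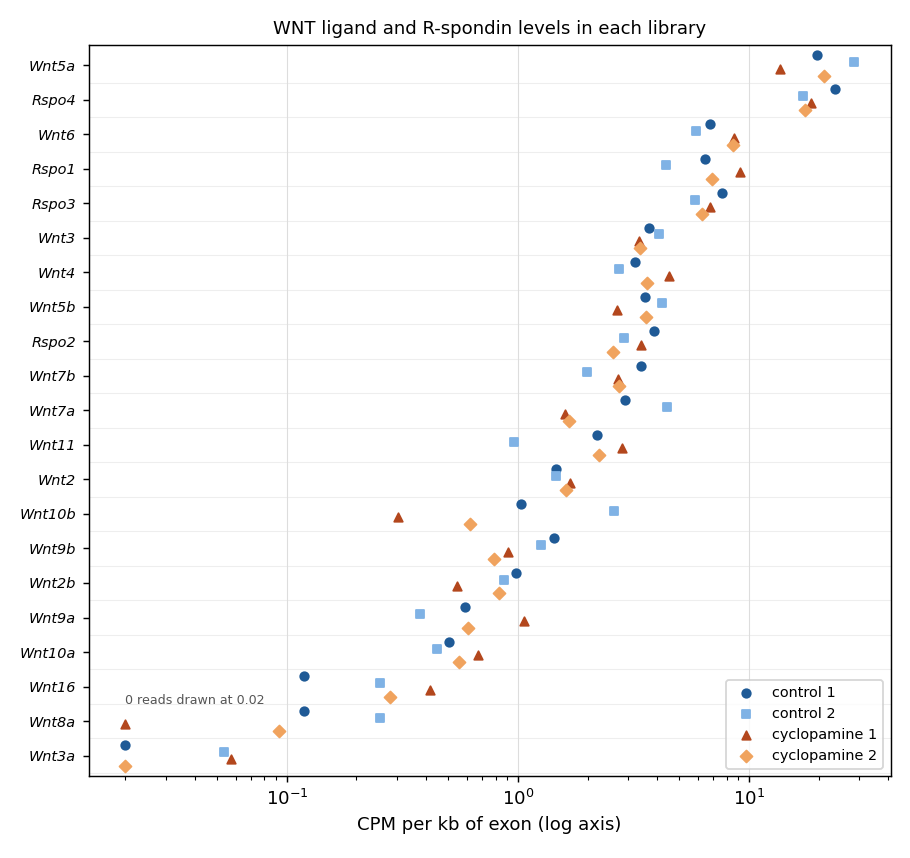
Level of each WNT ligand and R-spondin in the 4 libraries, in CPM per kb of exon on a log10 axis, with 1 point per library coloured by condition and 0 reads drawn at 0.02. Wnt5a and Rspo4 stand highest, and the cyclopamine points of Wnt7a and Wnt10b lie below both control points.

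Fzd2, a receptor for WNT5A among others, led at 40.3 CPM per kb (37.6 to 43.5) and lay above Fzd7 at 24.1 (22.3 to 29.0) in every library. Fzd7, Fzd1 (22.8) and Fzd10 (22.7) overlapped in turn. The co-receptor Lrp6 stood at 15.0 (14.7 to 15.3) and overlapped Fzd3 at 14.3. Below them Lrp5 (11.4), Fzd6 (4.43), Fzd4 (2.22), Fzd8 (1.79), Fzd5 (0.627) and Fzd9 (0.161) each stood apart from the next. Fzd9 gave 3 to 6 reads per library and was not tested. Within the 10 Frizzled genes, Fzd2 held 29.5% to 31.2% of the summed level per kb.

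The targets spanned a wide range of levels. Tcf7, which encodes a TCF/LEF-family transcription factor that is itself a target, led at 27.5 CPM per kb (21.2 to 32.5), apart from Axin2 at 15.2 (12.9 to 16.9), which overlapped Lef1 at 12.6 (11.2 to 13.9). Lgr5, Rnf43 and Sp5 were the least abundant, at 1.03, 0.686 and 0.616 CPM per kb. Of the inhibitors, Sfrp1 (45.9) was more abundant per kb than Sfrp2 (28.4), and Sfrp2 more than Wif1 (10.3), with no overlap between neighbours.

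**Figure D2:**
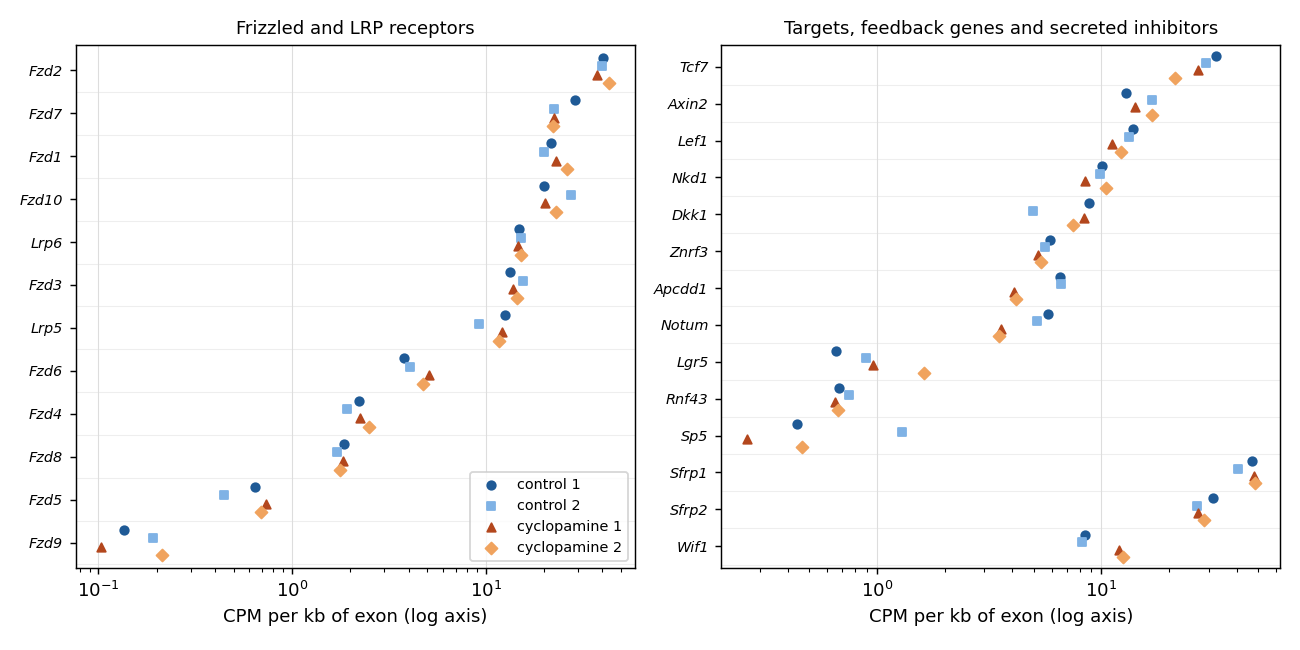
Level of each receptor, target and inhibitor in the 4 libraries, in CPM per kb of exon on a log10 axis, with 1 point per library coloured by condition. Fzd2 leads the Frizzled genes at 37.6 to 43.5 CPM per kb, and the cyclopamine points of Apcdd1 lie below both control points.

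Across the 44 tested members, limma and edgeR's quasi-likelihood test each called 0, and DESeq2 called 1, Apcdd1. Against this, 0.28% of all genes passed in limma, 0.295% in edgeR and 0.383% in DESeq2. A block for the replicate number, which is not taken to pair the samples, called 4 members where it called 2.59% of all genes. Leaving out a library leaves 1 library in that group, which limma then assumes to vary like the others. This called 1 member without control 1 (0.582% of all genes), 0 without control 2 (0.316%), 0 without cyclopamine 1 (0.898%) and 2 without cyclopamine 2 (0.621%). At an unadjusted p under 0.05 there were 10 members (22.7%), 4 higher and 6 lower in cyclopamine, where 5.82% of all genes were (3.04% higher and 2.78% lower). The groups did not overlap for 26 members (59.1%), 15 higher and 11 lower, where 32.6% of all genes were apart, 16.8% higher and 15.8% lower. Of the 44, 12 (27.3%) had a log2 fold change of at least 0.5 in size, against 8.48% of all genes. Of these, 11 were also apart between groups (6.67% of all genes). The median SE was 0.215 in the members and 0.192 in all genes, so members were measured less precisely. The part of this in the shares was not tested. The median log2 fold change was -0.02 in the members and 0.00 in all genes. In bulk samples, fewer cells of a type and less RNA per cell cannot be told apart.

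**Figure D3:**
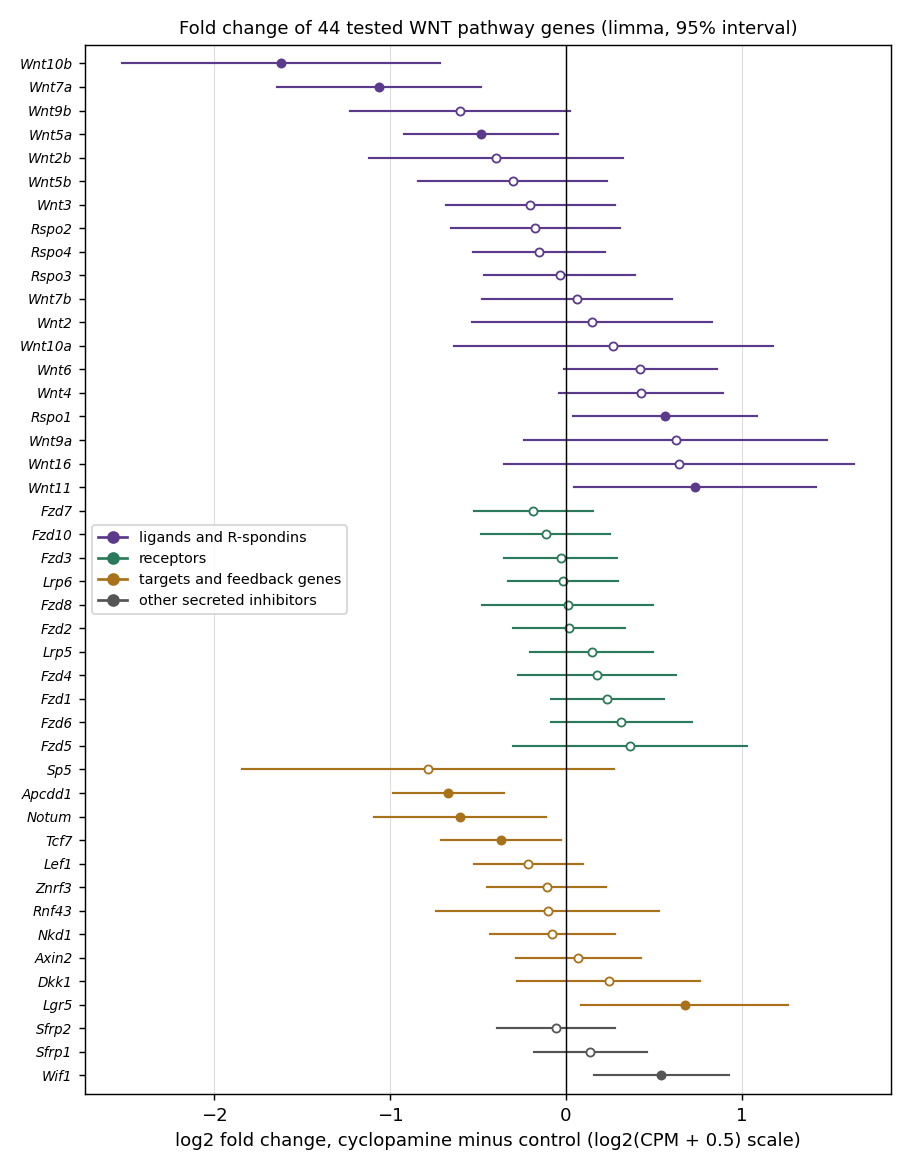
limma log2 fold change (cyclopamine minus control) of each tested member with its 95% confidence interval, ordered by role, with filled points for an unadjusted p under 0.05. Wnt10b (-1.62) and Wnt7a (-1.06) lie furthest below 0 among the ligands, and receptor values lie between -0.18 and 0.36.

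Of the 19 tested ligands and R-spondins, 0 passed in limma, in edgeR and in DESeq2. In limma 5 (26.3%) had an unadjusted p under 0.05, 3 lower and 2 higher in cyclopamine, against 5.82% of all genes. The median log2 fold change of the 19 was -0.03, and single values ran from -1.62 to 0.74. The median moved from -0.18 without control 2 to 0.15 without control 1. The groups did not overlap for 13 (68.4%), of which 8 were higher and 5 lower, where 32.6% of all genes were apart. Summed neural tube and neuron markers were also lower with cyclopamine (51.9 and 89.5 CPM against 11.4 and 14.3 CPM), and their part in the values of lower ligands was not tested.

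Wnt10b, which encodes a ligand of the beta-catenin branch, measured 3.51 and 8.89 CPM in control limbs against 1.03 and 2.11 CPM with cyclopamine, from 34, 121, 13 and 26 reads. Both cyclopamine libraries lay below both controls, and the controls differed from each other by more than the cyclopamine libraries did. The log2 fold change was -1.62 (SE 0.43, 95% interval -2.53 to -0.72), with a limma adjusted p = 0.252. It lies at chromosome 15, 98770712 to 98778150 (mm10). Over the alternatives the adjusted p ran from 0.000297, with a block for the replicate number, to 0.851. It was 0.0211 without control 1 and 0.00462 without cyclopamine 2, each with a lone library in 1 group, and the log2 fold change without control 2 was -1.01.

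Wnt7a (chromosome 6, 91363981 to 91411363) measured 9.18 and 14.0 CPM in the controls, 11.6 ± 3.38 (SD, n = 2), and 5.05 and 5.27 CPM in cyclopamine, 5.16 ± 0.154 (SD, n = 2). All cyclopamine values were below both control values, and they agreed closely with each other. The log2 fold change was -1.06 (SE 0.27, 95% interval -1.64 to -0.48; limma adjusted p = 0.227). Leaving out 1 library gave -1.35 to -0.78, and over the alternatives the adjusted p ran from 0.00153, with a block for the replicate number, to 0.733, without control 2. The authors' deposited table lists false discovery rates of 0.102 for Wnt7a and 0.0740 for Wnt10b.

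Wnt5a (chromosome 14, 28504750 to 28527448), the most abundant ligand per kb, measured 154 and 223 CPM in control limbs against 107 and 165 CPM with cyclopamine. The groups overlap, since the higher cyclopamine value exceeds the lower control value. Its log2 fold change was -0.48 (SE 0.21, 95% interval -0.92 to -0.04), with a limma adjusted p = 0.793. It was -0.79 without cyclopamine 2, which leaves a lone cyclopamine library, and -0.17 at the other end of the leave-one-out range. Over all alternatives the adjusted p ran from 0.00335, with a block for the replicate number, to 0.9999 in DESeq2. The exons of Wnt5a, like those of 9 other members (Axin2, Fzd5, Fzd6, Lef1, Notum, Rspo3, Sfrp2, Wnt11 and Wnt7b), overlap a gene on the opposite strand, and the labels do not say whether counting used strand.

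In the other direction were Wnt11 and Rspo1. Wnt11, which acts mainly through cell polarity, measured 9.08 and 3.97 CPM in control limbs against 11.7 and 9.24 CPM with cyclopamine. Both cyclopamine values lay above the controls, the lower of them only just. The log2 fold change was 0.74 (SE 0.32, 95% interval 0.05 to 1.42; limma adjusted p = 0.813) and ran from 0.18 to 1.29 when 1 library was left out. Rspo1, a secreted enhancer of WNT signalling, measured 12.5 and 8.45 CPM against 17.7 and 13.5 CPM, with no overlap, and gave 0.56 (SE 0.25, limma adjusted p = 0.81).

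Of lower-abundance ligands, Wnt9b, a ligand of epithelia, measured 6.50 and 5.66 CPM in control limbs against 4.10 and 3.57 CPM with cyclopamine (-0.60, SE 0.29, limma adjusted p = 0.875). Wnt9a measured 1.96 and 1.25 CPM against 3.55 and 2.03 CPM (0.62, SE 0.40), and Wnt16 measured 0.516 and 1.10 CPM against 1.81 and 1.22 CPM (0.64, SE 0.47), from 5 to 23 reads. The groups were apart for these 3, narrowly for Wnt9a and Wnt16. Wnt6, which was apart as well, measured 14.9 and 12.9 CPM against 18.9 and 18.6 CPM (0.42, SE 0.20, adjusted p = 0.875).

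Rspo4 measured 55.6 and 40.6 CPM in control limbs against 43.8 and 41.6 CPM with cyclopamine, with overlap (-0.15, SE 0.18), and without control 1 the value was 0.07. Of the remaining ligands and R-spondins, Wnt4 (log2 fold change 0.43, SE 0.22), Wnt10a (0.27) and Wnt2 (0.15) were apart and higher, and Wnt2b (-0.40) and Wnt3 (-0.20), the ligand needed for the ridge, apart and lower. The groups overlapped for Wnt5b (-0.30), Rspo2, which is made in the ridge (-0.17), and Wnt7b (0.06). Rspo3, the third R-spondin by level per kb, measured 23.5 and 18.0 CPM against 20.9 and 19.3 CPM (-0.03, SE 0.20), with overlap.

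Of the 11 tested receptors 0 passed in limma, in edgeR and in DESeq2, and 0 had an unadjusted p under 0.05, with 7 higher and 4 lower and a median log2 fold change of 0.02. Fzd2 measured 147 and 146 CPM in control limbs against 138 and 159 CPM with cyclopamine, a log2 fold change of 0.02 (SE 0.15, 95% interval -0.30 to 0.34). Fzd7 measured 132 and 102 CPM against 103 and 101 CPM (-0.18, SE 0.16), with overlap. Fzd1 measured 91.7 and 83.9 CPM against 96.9 and 110.4 CPM, with no overlap (0.24, SE 0.15, 95% interval -0.08 to 0.56). The intervals say how large a change the data leave room for, and the p-values do not show that receptor levels are the same.

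The groups did not overlap for 4 of the 11 tested receptors (36.4%), all higher. This lies near the share of all genes apart, 32.6% (16.8% higher and 15.8% lower). Besides Fzd1 these were Fzd6, Fzd4 and Fzd5, with log2 fold changes of 0.32 (SE 0.19), 0.18 and 0.36 (SE 0.31), narrowly apart for Fzd4. The co-receptor Lrp6 measured 203 and 209 CPM in control limbs against 201 and 207 CPM with cyclopamine, with a log2 fold change of -0.01 (95% interval -0.33 to 0.30). Fold changes of the remaining receptors on the log2 scale were 0.15 (Lrp5), 0.01 (Fzd8), -0.03 (Fzd3) and -0.12 (Fzd10), all with overlap.

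Among the 11 targets and feedback genes, 0 passed in limma and in edgeR, and 1 passed in DESeq2, where 0.383% of all genes did. In limma 4 (36.4%) had an unadjusted p under 0.05, 3 lower and 1 higher in cyclopamine, against 5.82% of all genes. The groups did not overlap for 7 (63.6%), 6 lower and 1 higher. Of all genes 32.6% were apart, 15.8% lower and 16.8% higher. The median log2 fold change of the 11 was -0.11. Targets were not of 1 direction, and the values are given by gene.

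Apcdd1, a membrane-bound inhibitor of WNT signalling that is induced by it, measured 84.1 and 84.7 CPM in the controls, 84.4 ± 0.437 (SD, n = 2), and 52.3 and 53.6 CPM in cyclopamine, 52.9 ± 0.887 (SD, n = 2). The difference between groups is larger than the spread within either, but 2 libraries per group give a poor measure of that spread. Its log2 fold change was -0.67 (SE 0.15, 95% interval -0.98 to -0.35), the limma adjusted p was 0.0973, and leaving out 1 library gave -0.69 to -0.65. DESeq2 gave an adjusted p of 0.0346 and edgeR's quasi-likelihood test 0.0925. Over the alternatives the adjusted p ran from 7.84e-05, with a block for the replicate number, to 0.479. The authors' deposited table lists Apcdd1 at a false discovery rate of 0.0181 and a log2 fold change of -0.67, where 0.455% of the genes of that table are under 0.05. Apcdd1 lies at chromosome 18, 62922231 to 62961179 (mm10).

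Notum (chromosome 11, 120653788 to 120661175) encodes a secreted enzyme that removes the lipid from WNT proteins. It measured 13.9 and 12.5 CPM in control limbs against 8.60 and 8.43 CPM with cyclopamine, with no overlap (log2 fold change -0.60, SE 0.23, 95% interval -1.09 to -0.11, limma adjusted p = 0.661). Tcf7 measured 85.2 and 77.1 CPM against 70.4 and 55.7 CPM, with no overlap (-0.37, SE 0.16, adjusted p = 0.81). Lef1, its relative, measured 122 and 116 CPM against 98.4 and 107 CPM, also apart (-0.21, SE 0.15).

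Lgr5 (chromosome 10, 115450311 to 115587780), which encodes an R-spondin receptor, was measured higher. It gave 6.71 and 9.18 CPM in control limbs against 9.86 and 16.7 CPM with cyclopamine, narrowly apart, with a log2 fold change of 0.68 (SE 0.28, 95% interval 0.09 to 1.27, limma adjusted p = 0.756) that ran from 0.31 to 1.04 without 1 library. Axin2, the feedback scaffold of the destruction complex, measured 71.1 and 92.2 CPM against 77.7 and 92.9 CPM. Its groups overlap, and the log2 fold change was 0.07 (SE 0.17, 95% interval -0.29 to 0.42), turning to -0.12 without control 1 and to -0.06 without cyclopamine 2.

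Sp5, a transcription factor that is a direct target, gave 9, 37, 7 and 12 reads, or 0.929 and 2.72 CPM in control limbs against 0.552 and 0.972 CPM with cyclopamine, with overlap (-0.78, SE 0.50). The higher of the control values came from control 2, and the lower lay below the higher cyclopamine value. Rnf43 and Znrf3, the ligases that remove Frizzled, were apart and lower by small amounts, at -0.10 and -0.11. Nkd1, an inhibitor of Dishevelled, gave -0.08, and Dkk1, a secreted inhibitor of LRP6, gave 0.24 (SE 0.25).

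**Figure D4:**
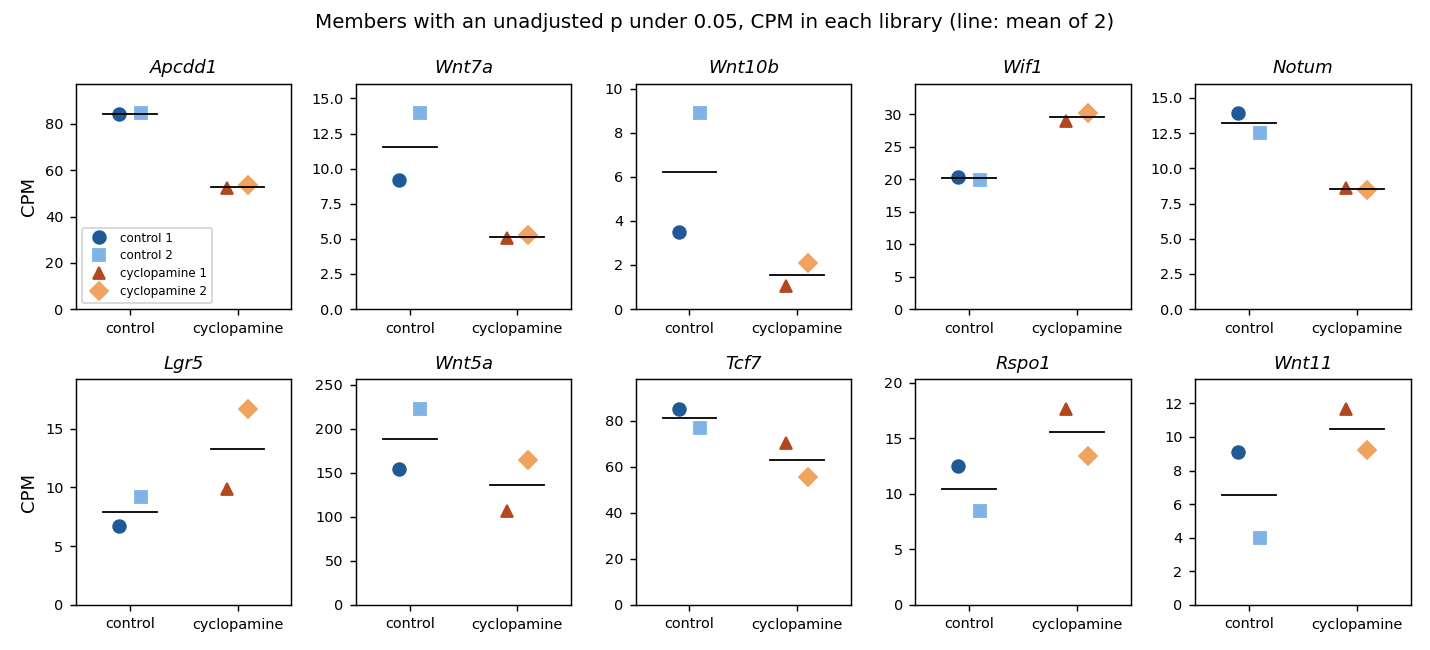
CPM in each of the 4 libraries for the 10 members with an unadjusted p under 0.05, with 1 point per library coloured by condition and a line at each mean. Apcdd1 is 84.1 and 84.7 CPM in control limbs against 52.3 and 53.6 CPM with cyclopamine, and Wif1 is higher in both cyclopamine libraries.

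Of the other secreted inhibitors, Wif1 (chromosome 10, 121033960 to 121100650), which binds WNT proteins directly, measured 20.4 and 19.9 CPM in the controls, 20.2 ± 0.367 (SD, n = 2), and 29.0 and 30.2 CPM in cyclopamine, 29.6 ± 0.842 (SD, n = 2). There was no overlap, and the log2 fold change was 0.54 (SE 0.18, 95% interval 0.16 to 0.93) with a limma adjusted p of 0.504, between 0.51 and 0.57 without 1 library. Sfrp1 measured 205 and 178 CPM against 209 and 211 CPM (0.14, SE 0.15), and Sfrp2 67.7 and 57.1 CPM against 58.0 and 61.5 CPM (-0.06). None of these 3 passed in limma, edgeR or DESeq2.

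Of 76 other pathway genes in 4 lists, 74 were listed and 69 tested. In limma and in edgeR 0 passed, and in DESeq2 2 passed (Sost and Ccnd1), where 0.383% of all genes did. In limma 9 of the 69 had an unadjusted p under 0.05, against 5.82% of all genes. Of 18 tested secretion factors and secreted or membrane modulators, 9 were higher and 9 lower. Sost, a secreted inhibitor of LRP5 and LRP6, measured 8.15 and 10.5 CPM in control limbs against 3.47 and 2.75 CPM with cyclopamine (-1.44, SE 0.29, limma adjusted p = 0.0577). Its relative Sostdc1 went the other way, at 4.54 and 3.38 CPM against 9.55 and 8.10 CPM (1.07, SE 0.28, adjusted p = 0.255). Frzb, a Frizzled-related inhibitor, measured 85.8 and 102.6 CPM against 54.3 and 69.1 CPM (-0.61, SE 0.17, adjusted p = 0.287). For each of these 3 genes the groups were apart.

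Of 28 destruction complex, Dishevelled and beta-catenin genes, 10 were higher and 18 lower, with 0 at an unadjusted p under 0.05 and a median log2 fold change of -0.03. The smallest p-values belonged to the co-repressors Tle1 (-0.23, SE 0.15) and Tle3 (-0.15, SE 0.15) and to Apc2 (0.61, SE 0.44). Among 12 planar polarity genes, 4 were higher and 8 lower, and Daam2, a formin that works with Dishevelled, measured 119 and 117 CPM against 95.7 and 89.5 CPM (-0.35, SE 0.15, limma adjusted p = 0.771). Of that list Celsr2 gave -0.46 (SE 0.22) and Dact1 0.29 (SE 0.21). In the 11 tested genes known as targets in other tissues, 4 were higher and 7 lower. Ccnd1, which encodes cyclin D1, measured 175 and 217 CPM against 116 and 124 CPM, apart (-0.70, SE 0.16, adjusted p = 0.0963). Ascl2 gave -1.13 (SE 0.44, adjusted p = 0.677) and Bambi 0.33 (SE 0.16).

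Markers of other cell types varied between the libraries. Of 12 neural tube and neuron markers 9 were tested, and all 9 were lower in cyclopamine. Of these, 6 passed the threshold in limma, 5 in edgeR and 5 in DESeq2. Olig3, Neurod4 and Ina were at 0 reads in both cyclopamine libraries. Control 2 has the highest neural sum. Of the tested members apart and lower, Wnt10b, Wnt7a, Wnt3, Apcdd1 and Rnf43 were highest in control 2. Wnt9b, Wnt2b, Tcf7, Lef1, Znrf3 and Notum were highest in control 1. Of the tested members lower with overlap, Wnt5a, Wnt5b, Fzd10, Fzd3, Lrp6 and Sp5 were highest in control 2. Rspo4, Rspo2, Rspo3, Fzd7 and Sfrp2 were highest in control 1, and Nkd1 in cyclopamine 2. A link of any member to the neural sum was not tested. The sum of 8 ectoderm markers was 383 and 285 CPM in control limbs against 409 and 301 CPM with cyclopamine, overlapping, with 0 past the threshold. Of 6 apical ridge markers, Fgf8 and Fgf4 were lower past the threshold in limma, and the sum was 136 and 148 CPM against 114 and 111 CPM. Fgf8 measured 30.8 and 32.3 CPM against 10.2 and 9.40 CPM, and Fgf4 5.67 and 9.70 CPM against 0.316 and 0.486 CPM. The groups overlapped for the ridge markers Sp8 (log2 fold change -0.34), Dlx2 (-0.13), Dlx5 (0.48) and Trp63 (0.08). Wnt7a is known as a gene of the limb ectoderm, and its values stand beside these sums; their part in its lower value was not tested. The 3 listed erythroid markers of 4 summed to 1038, 488, 1758 and 1036 CPM in the order control 1, control 2, cyclopamine 1 and cyclopamine 2. The endothelial sum was apart, at 333 and 344 CPM against 370.2 and 421 CPM, with all 5 markers higher and 0 past the threshold. Sums overlapped for neural crest (17.0 to 24.0 CPM), somite (39.6 to 51.6 CPM) and macrophage markers (11.2 to 16.5 CPM). The part of the endothelial and mesenchymal sums in the values of members measured higher was not tested.

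**Figure D5:**
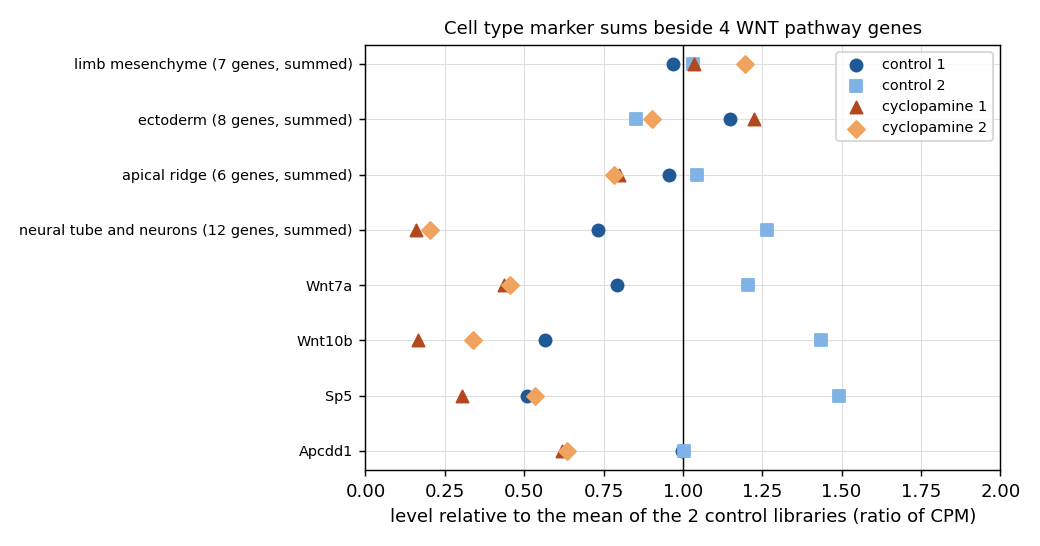
Summed CPM of 4 marker lists, and CPM of Wnt7a, Wnt10b, Sp5 and Apcdd1, each as a ratio to the mean of the 2 control libraries, with 1 point per library coloured by condition. The neural tube and neuron sum lies lowest with cyclopamine (11.4 and 14.3 CPM, against 51.9 and 89.5 CPM), and the ectoderm sum overlaps.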

How the data were processed

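RNA from 4 forelimb libraries was sequenced. Per the submitters' processing notes, the tools were HTSeq 0.5.4p5, TopHat2 2.0.9, SAMtools, edgeR 3.4.2 and Bowtie, and mm10 was the build, with no role or order given. The deposited signal per gene is a normalized count, scaled by the authors to an effective library size (CPM). All deposited values were whole multiples of 1 read, within 0.01 of a read, so reads were recovered: 1 read is worth 0.0735 to 0.103 CPM, and a floor of 3 reads is 0.220 to 0.310 CPM (counting error only). The authors' deposited table gives log2 fold changes, p-values and a false discovery rate, with no test named.

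The comparison used limma 3.58.1 in R 4.3.3 with an intensity trend on log2(CPM + 0.5) of genes averaging 1 CPM or more, two-sided, Benjamini-Hochberg adjusted over 13568 genes, threshold 0.05. Fold changes of low genes are understated on this scale. edgeR 4.0.16 and DESeq2 1.42.0 were run on recovered reads as alternatives, with other pseudocounts, filters and scalings, a replicate block and each library left out. The script was tested on simulated data. A permutation of 2 against 2 cannot go below 0.333. In limma the SE, interval and p-value of a gene draw on the spread of all genes tested. The prior has 13.5 degrees of freedom against 2 residual degrees of freedom from the gene's own libraries. All p-values measure only the spread between these libraries, whose embryos are not described.

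Values in every library are given for members with an unadjusted p under 0.05, the 3 highest per kb of each role, and members apart between groups with a log2 fold change of at least 0.5 in size. Sp5, Rspo3 and Lrp6, outside this rule, were added once their values had been seen. The 4 lists of other pathway genes show the 3 smallest p-values each. Members and lists were chosen with earlier results of these data known.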

Additional observations from a re-analysis of the deposited data

How the results depend on the processing

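The count of all genes past the threshold was 38 in limma, 40 in edgeR and 52 in DESeq2, but 0 without the intensity trend (837 at an unadjusted p under 0.05), 2 without a filter on low values, 20 with scaling to library totals, and 43 to 122 when 1 library was left out. Fitting the replicate number as a block gave 351 (186 higher, 165 lower). The labels tie the replicate number to nothing, and the deviations of same-numbered libraries correlated at 0.274 across genes, with 2 pairs only, so the numbers are not taken to pair the samples.

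The count of WNT genes was 0, and 1 in DESeq2 (Apcdd1), 4 with the replicate block (Apcdd1, Wnt10b, Wnt5a and Wnt7a, all lower), and 0 to 2 with 1 library left out: Wnt10b without control 1, and Wnt10b and Wnt5a without cyclopamine 2. Leaving out 1 library moved the median log2 fold change of ligands between -0.18 and 0.15, of receptors between 0.038 and 0.12, of targets between -0.20 and -0.089, and of the other inhibitors between 0.03 and 0.24. The leave-one-out range crossed 0 for 14 of the 44 tested members. All of these overlapped between groups, which is fixed in advance, since leaving out 1 library cannot change the sign where the groups are apart. Of the 22 members named by rule, 4 changed sign, and their values ran from -0.38 to 0.072 (Rspo4, positive without control 1), from -0.086 to 0.12 (Fzd2, negative without cyclopamine 2), from -0.12 to 0.26 (Axin2, negative without control 1 and, at -0.059, without cyclopamine 2) and from -0.18 to 0.064 (Sfrp2, positive without control 1). Of 263 values of the 22 members named by rule, 250 kept their direction and side of the threshold. No member passed in the main test, so a value in the same direction that stayed short of the threshold counts as kept. Of the rest, 5 changed direction, and the others kept it and passed the threshold. The causes were not tested. Among tested members, the fewest reads in a library were 5 (Wnt16), 7 (Sp5), 12 (Wnt10a) and 13 (Wnt10b).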
